A study of Rattus norvegicus with 98 samples.

Results

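The comparison described here set rats collected 24 h after the start of formaldehyde inhalation against rats collected at 6 h, over 3 doses, so that it asks what changed in the lining of the nose with the time of collection and not with the dose. It held 24 of the 98 arrays of the series, chosen by their labels: 12 arrays of 24 h (4 rats each of air, 0.7 ppm and 2 ppm) and 12 arrays of 6 h (4 rats each of the same doses, from the first of the series' 2 array sets). Air means whole-body exposure at 0 ppm. All were male F344/NCrl rats, 8 weeks old, kept in whole-body chambers for 6 h per day, and each rat gave 1 array of its own, so every value below is from a separate animal. RNA came from cells that proteases had freed from the lateral meatus and nasoturbinate of level II of the nose, a mix that the submitters describe as mainly transitional with some respiratory epithelium. Rats of 6 ppm at the same times were kept out of the main comparison and are given beside it, as are the rats of the same 3 doses collected at 5, 8 and 19 days (38 arrays) and 4 air rats of the later array set collected at 6 h. The labels do not say at what hour of the day rats were collected. At 0.7 and 2 ppm the time difference also holds whatever the exposure did at either time. At every dose, air included, it also holds whatever the chamber stay of 6 h did. In air too, the time of collection and the time since that stay cannot be told apart.

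Most mammalian cells carry a clock in which BMAL1 and CLOCK (or its relative NPAS2) switch on the Per and Cry genes, whose proteins then hold BMAL1 and CLOCK back. The same pair switches on Nr1d1 and Nr1d2, whose proteins repress Bmal1, and Dbp, Tef and Hlf, whose proteins carry the rhythm to other genes. In tissues with a running clock, Bmal1 therefore peaks at about the time of day when Dbp, Per and Nr1d1 transcripts are low. Airway epithelium has such a clock.

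Values are on the authors' log2 scale, where a difference of 1 is a doubling of signal, and differences are 24 h minus 6 h with the dose as a block. A gene was called at a Benjamini-Hochberg adjusted p under 0.05 in limma, adjusted over all 31042 probe sets. Array medians lay between 6.03 and 6.06 at 24 h and between 6.00 and 6.04 at 6 h, and RNA integrity numbers between 7.5 and 8.5 (9 rats) and between 7.2 and 8.6 (11 rats). Each array's median correlation with the other 23 arrays was at least 0.984 at 24 h and at least 0.981 at 6 h, the lowest being a 2 ppm rat at 6 h (animal 209). All 16 first-set arrays of 6 h, 6 ppm included, share a form of array name that no first-set array of another time has, so the time of collection and whatever that name marks cannot be told apart within the first set. Olfactory markers varied widely between rats although the labels say that olfactory epithelium was discarded: the mean of 17 such genes ran from 7.83 to 10.22 (median 9.55) at 24 h and from 8.22 to 10.44 (median 9.21) at 6 h.

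Many probe sets differed between 24 h and 6 h, most of them by small amounts. Of the 31042 probe sets 5658 were called (18.2%), 3229 higher at 24 h (10.4%) and 2429 lower (7.82%). The median log2 difference was 0.25 among the called rises and −0.26 among the called falls. At least 2-fold changes were called in 31 probe sets that rose (0.0999%) and 32 that fell (0.103%). Rises made up 57.1% of the calls with the deposited scaling but 42.5% (2366 rises and 3199 falls) when each array was centred on its own median, so the balance between rises and falls rests on the scaling. Counted once per gene, on its brightest probe set, 3092 of 14217 genes were called (21.7%), 1859 higher (13.1%) and 1233 lower (8.67%). At least 2-fold changes were called in 20 genes each way (0.141%). In 127 genes (0.893%) no 24 h rat overlapped any 6 h rat, with the 24 h rats above in 73 (0.513%) and below in 54 (0.38%).

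Clock genes were called more often than genes at large. Among 27 measured clock genes 6 rose, 11 fell and 10 were not called, a share of 63.0% called against 21.7% of all genes. The 17 called clock genes had the same sign in air, at 0.7 ppm and at 2 ppm, as did 97.8% of all called probe sets. In 10 of the 27 the 12 rats of 24 h did not overlap the 12 rats of 6 h, against 0.893% of all genes. On the brightest probe set of each gene, Dbp had the largest fall and Bmal1 the largest rise of all called genes whose sign was the same in the 3 doses.

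Bmal1, the core activator, read 8.12, 8.45 and 8.75 (lowest, median and highest rat) at 24 h, against 5.97, 6.44 and 6.99 at 6 h. The lowest rat of 24 h thus stood above the highest rat of 6 h by more than a doubling of signal. The difference was 2.00 ± 0.07 (log2, SE, n = 12 each; limma adjusted p = 3.04e-15), a 4.01-fold rise, and it was 1.91 in air, 1.92 at 0.7 ppm and 2.18 at 2 ppm. Npas2, which can take the place of CLOCK as partner of BMAL1, read 7.08, 7.51 and 8.00 at 24 h, against 6.30, 6.60 and 6.97 at 6 h, again with no overlap (difference 0.96 ± 0.09, SE; adjusted p = 1.17e-07). Clock itself rose less, by 0.35 ± 0.07 (adjusted p = 0.0013), and 2 of its other 3 probe sets were also called, at 0.36 and 0.40. Rora, a nuclear receptor that activates Bmal1, rose by 0.53 ± 0.12 (adjusted p = 0.0039) with overlap between the times, while Rorb (−0.04) and Bmal2 (−0.05) were not called.

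The repressors of Bmal1 went the other way. Nr1d2, which encodes REV-ERB beta, read 8.23, 8.45 and 8.92 at 24 h, against 9.38, 9.76 and 10.08 at 6 h (difference −1.22 ± 0.06, SE; adjusted p = 4.75e-13). Every rat of 24 h lay below every rat of 6 h. Nr1d1, which encodes REV-ERB alpha, read 7.06, 8.04 and 8.84 at 24 h, against 8.61, 9.18 and 9.45 at 6 h, and 11 of the 12 rats of 24 h lay below the lowest rat of 6 h. Its difference of −1.07 ± 0.14 (adjusted p = 9.86e-06) was −1.47 in air, −1.26 at 0.7 ppm and −0.48 at 2 ppm, and the within-dose contrast at 2 ppm was not called (adjusted p = 0.187). Nfil3, a repressor that binds the same D-box element as DBP and that is known to run opposite to it, read 7.30, 7.88 and 8.86 at 24 h, against 6.36, 6.74 and 7.24 at 6 h, with no overlap (difference 1.16 ± 0.14; adjusted p = 4.25e-06).

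Among the Per and Cry arm, 1 gene rose and 4 fell of 9 measured. Per3 read 5.56, 6.03 and 6.66 at 24 h, against 6.79, 7.28 and 7.80 at 6 h, a 2.36-fold lower level at 24 h (difference −1.24 ± 0.13, SE; adjusted p = 8.77e-07). Per2 read 7.89, 8.10 and 8.31 at 24 h, against 8.34, 8.79 and 9.20 at 6 h (difference −0.67 ± 0.08; adjusted p = 3.35e-06), while its other probe set differed by 0.00 ± 0.05. Both Per genes separated the times completely. Cry1, a repressor whose transcript is known to peak later than those of the Per genes, moved the opposite way: 8.16, 8.43 and 8.73 at 24 h, against 7.23, 7.40 and 7.92 at 6 h (difference 1.02 ± 0.08; adjusted p = 9.61e-09). Cry2 fell slightly, by 0.24 ± 0.06 (adjusted p = 0.0041). Wee1, a mitotic kinase gene with E-boxes under clock control in mouse liver, differed by −0.51 ± 0.08 (adjusted p = 0.000109). Per1 (−0.18 ± 0.10), the casein kinases Csnk1d (0.03) and Csnk1e (−0.11), which mark PER proteins for decay, and Timeless (−0.15) were not called. Bhlhe41, an E-box repressor induced by BMAL1 and CLOCK, read 7.17, 7.56 and 8.03 at 24 h, against 8.51, 8.85 and 9.40 at 6 h (difference −1.22 ± 0.10; adjusted p = 4.31e-08), whereas its relative Bhlhe40 was not called (0.20 ± 0.15).

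The output genes fell in 4 of 7 cases, with a median of −0.37. Dbp, a transcription factor gene driven directly by BMAL1 and CLOCK, read 6.94, 7.08 and 7.51 at 24 h, against 9.10, 9.42 and 9.84 at 6 h. No rat of 24 h came near the rats of 6 h, a 4.89-fold lower level at 24 h (difference −2.29 ± 0.07, SE; adjusted p = 4.28e-16), at −2.15 in air, −2.55 at 0.7 ppm and −2.17 at 2 ppm. Its relative Tef separated the times as well, with 6.99, 7.35 and 7.46 at 24 h, against 7.83, 8.18 and 8.41 at 6 h (difference −0.87 ± 0.07; adjusted p = 9.25e-09). Hlf, the other member of that family, and Nampt, the rate-limiting enzyme of NAD salvage, both fell by 0.37 (adjusted p = 0.0011 and 0.0195), with overlap. When the probe sets of a gene were averaged, Nampt was not called and Usp2, a deubiquitinase, was (adjusted p = 0.0269). On their brightest probe sets Usp2 (−0.20), Tspan4 (0.23) and Tfrc (−0.32), the transferrin receptor, were not called.

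**Figure D1:**
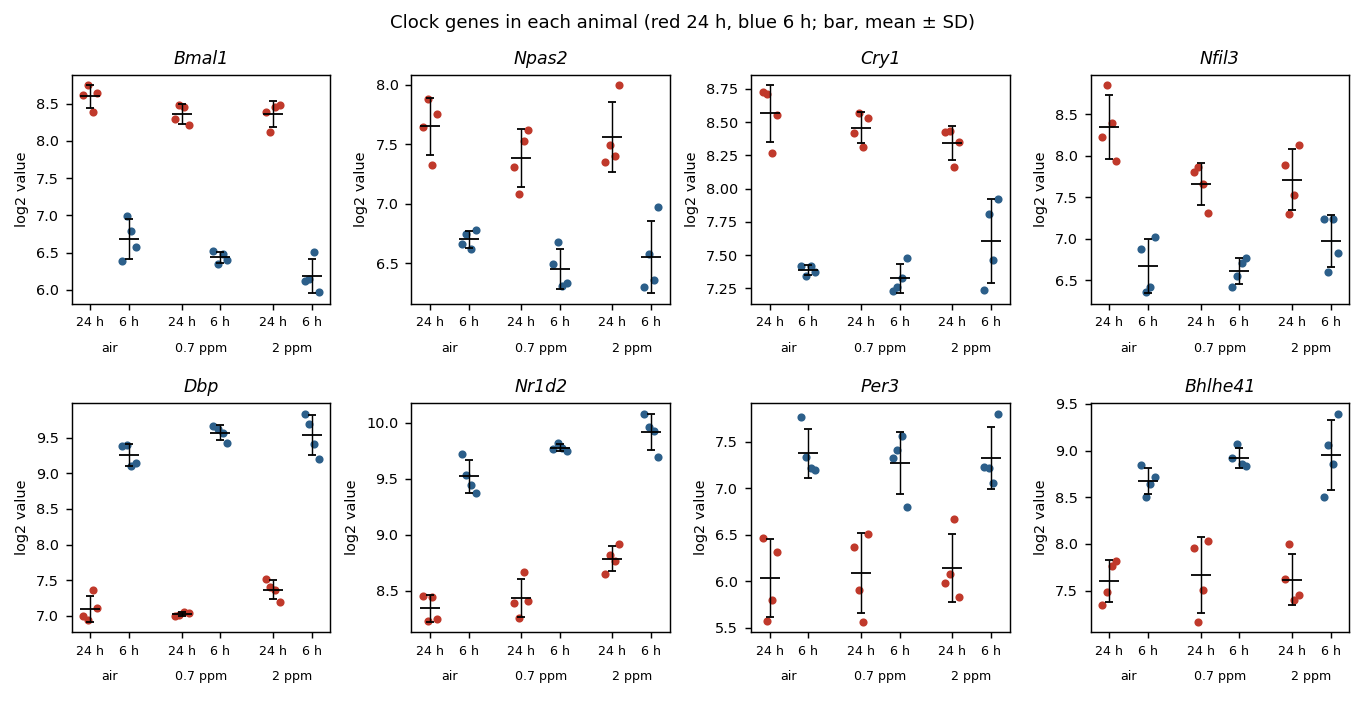
Each point is 1 rat, 4 per group, with the log2 value on the vertical axis and the doses side by side, 24 h (red) left of 6 h (blue); black bars give the mean and SD. Bmal1, Npas2, Cry1 and Nfil3 lay higher at 24 h in air, at 0.7 ppm and at 2 ppm, and Dbp, Nr1d2, Per3 and Bhlhe41 lay lower, with no overlap of the 12 and 12 rats in any of the 8 genes.

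Promoters are shown for the 4 called clock genes whose window from 250 bases before to 50 bases after the start holds a match to an element searched for, to place that element beside the direction of the gene. The sequences are those of RefSeq on the GRCr8 rat assembly, 5′ to 3′ on the gene's strand, with the match in capitals. The motifs were the E-box CACGTG, which BMAL1 and CLOCK bind, the D-box TTANNTAA, bound by DBP, TEF, HLF and NFIL3, and the ROR element ANTNGGTCA, bound by ROR and REV-ERB receptors, each on both strands. Bmal1 (chr1:176766078-176766377, plus strand) holds a ROR element that starts 18 bases before the gene's start. Bhlhe41 (chr4:180569306-180569605, minus strand) and Tef (chr7:115206577-115206876, plus strand) hold an E-box 48 and 198 bases before it, and Per2 (chr9:99496944-99497243, minus strand) a D-box 192 bases before it.
Bmal1: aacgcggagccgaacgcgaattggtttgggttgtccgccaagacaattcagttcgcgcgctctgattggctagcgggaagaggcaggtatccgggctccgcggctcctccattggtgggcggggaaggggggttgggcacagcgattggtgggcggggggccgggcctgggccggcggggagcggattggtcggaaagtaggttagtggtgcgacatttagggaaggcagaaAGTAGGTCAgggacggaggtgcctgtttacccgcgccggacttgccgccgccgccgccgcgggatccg
Bhlhe41: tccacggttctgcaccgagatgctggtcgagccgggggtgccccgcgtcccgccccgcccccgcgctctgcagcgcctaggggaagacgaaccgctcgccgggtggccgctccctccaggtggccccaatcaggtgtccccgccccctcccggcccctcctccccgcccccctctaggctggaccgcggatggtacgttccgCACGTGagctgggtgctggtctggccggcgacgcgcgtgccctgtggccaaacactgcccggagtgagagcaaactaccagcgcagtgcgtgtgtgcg
Tef: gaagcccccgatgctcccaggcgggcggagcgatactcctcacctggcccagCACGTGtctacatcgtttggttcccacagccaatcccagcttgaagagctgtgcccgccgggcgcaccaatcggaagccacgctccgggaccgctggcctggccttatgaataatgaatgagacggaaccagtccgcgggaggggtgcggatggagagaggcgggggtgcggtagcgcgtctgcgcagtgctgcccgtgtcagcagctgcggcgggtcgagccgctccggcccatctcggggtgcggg
Per2: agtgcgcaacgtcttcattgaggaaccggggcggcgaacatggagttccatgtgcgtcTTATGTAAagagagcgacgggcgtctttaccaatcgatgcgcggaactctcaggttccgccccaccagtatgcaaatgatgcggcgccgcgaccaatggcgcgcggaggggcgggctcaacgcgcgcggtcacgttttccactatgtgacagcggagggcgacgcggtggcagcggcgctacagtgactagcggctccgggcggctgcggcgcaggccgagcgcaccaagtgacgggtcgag
Of the 27 clock genes 21 had a promoter in the table: 3 held an E-box, 1 a D-box and 2 a ROR element, against 6.42%, 5.84% and 2.49% of all 33469 promoters of this length. The other matches were an E-box in Bhlhe40 and a ROR element in Timeless, neither of which was called. No E-box match lay in this window of Dbp, Nr1d1, Nr1d2 or Per3, which says only that these letters are not within it.

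Set against the later times at the same doses, 24 h was the time that stood apart for the clock. Bmal1 had medians of 6.44 at 6 h, 8.45 at 24 h and 6.46 over the 38 rats of 5, 8 and 19 days, whose highest rat (7.07) lay below the lowest of 24 h. Dbp had medians of 9.42 at 6 h, 7.08 at 24 h and 9.59 at the later days, whose lowest rat (8.99) lay above the highest of 24 h. In 15 of the 17 called clock genes the mean of the later days lay less than 0.25 of the way from 6 h towards 24 h, and the air rats of the later array set at 6 h were nearer to 6 h than to 24 h in all 17. The 2 exceptions to the first count were Rora and Nampt. Among all 343 called genes past 0.5 log2, a limit not set for the 17, the later days lay that near to 6 h in 160. The share for the later-set air rats was not counted over all genes. The measure of 0.25 of the way was chosen after the values were seen and is a description with no test.

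Rats of 6 ppm, which share no animal with the comparison, gave the same directions. All 17 called clock genes had the same sign at 6 ppm, and 6 of the 27 measured ones were called there, against 0.361% of all probe sets. At 6 ppm Bmal1 averaged 8.22 ± 0.20 at 24 h and 5.95 ± 0.19 at 6 h (SD, n = 4 each; difference 2.27, limma adjusted p = 0.000345), and Dbp averaged 7.42 ± 0.24 at 24 h and 9.40 ± 0.12 at 6 h (difference −1.98, adjusted p = 0.000487). Over all probe sets 112 were called at 6 ppm and 90 of them were also called, with the same sign, at the lower doses, 80.4% of the 6 ppm calls and 1.59% of the 5658. Of those 5658, 89.7% had the same sign at 6 ppm, against 65.6% of all probe sets. The 6 ppm comparison also holds whatever 6 ppm did at 6 h, and its 6 h arrays carry the same name form.

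**Figure D2:**
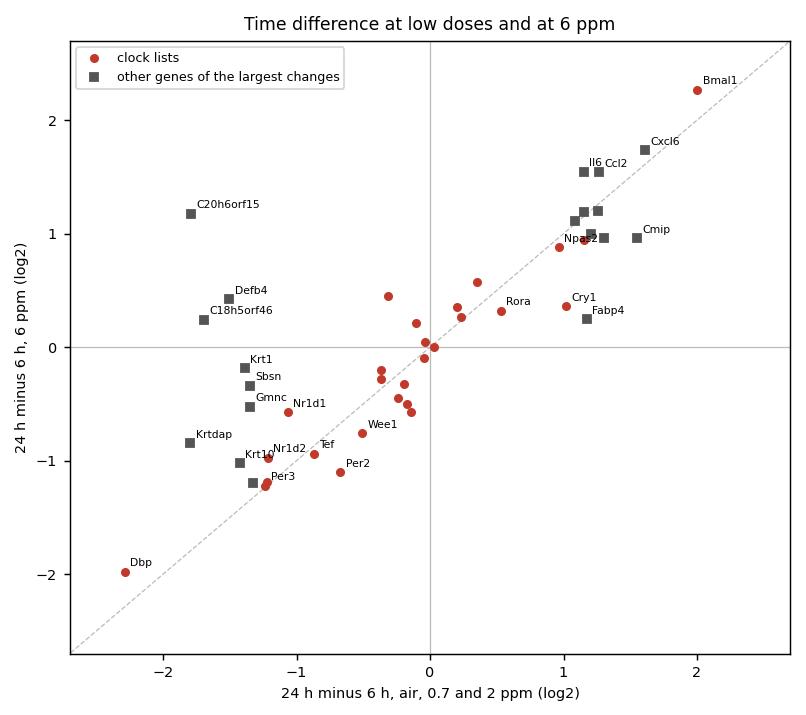
The horizontal axis is the 24 h minus 6 h log2 difference over air, 0.7 and 2 ppm, and the vertical axis is the same difference at 6 ppm; red circles are the 27 clock genes, grey squares the other genes among the 24 largest changes, and the dashed line marks equal values. Bmal1, Cxcl6 and Dbp lie near the line, whereas C20h6orf15, C18h5orf46 and Defb4 lie on the other side of 0 at 6 ppm.

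A likeness search over the 24 arrays, outside the clock lists, named the genes whose values ran most closely with Bmal1 and Per2. For Bmal1 they were Srebf1, the regulator of fat synthesis (Pearson r = 0.94), Ptbp3, a splicing factor (r = −0.92), Lrp10 (r = 0.92), Gja4, a connexin of vessel walls (r = 0.92), and Rab14, a vesicle GTPase (r = −0.92). For Per2 they were Cxcl6 (r = −0.87), Amd1, an enzyme of polyamine synthesis (r = 0.87), Osbpl3 (r = 0.86), Ptbp3 (r = 0.86) and Kansl1 (r = 0.86). These are descriptions: any gene that separates the times gives a high r here. Srebf1 read 10.03, 10.24 and 10.46 at 24 h, against 9.22, 9.58 and 9.71 at 6 h (difference 0.69 ± 0.05, SE; adjusted p = 7.13e-09), and Ptbp3 read 10.30, 10.42 and 10.60 at 24 h, against 10.77, 10.87 and 11.45 at 6 h (difference −0.53 ± 0.05; adjusted p = 2.55e-07).

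The cytokine genes Il6, Ccl2 and Cxcl6 were higher at 24 h, air included. Of 25 inflammatory mediators 6 rose and none fell, against 13.1% of all genes that rose, with a median of 0.14. Il6 read 4.79, 5.34 and 5.96 at 24 h, against 3.93, 4.25 and 4.53 at 6 h, and Ccl2, which draws monocytes, read 6.82, 7.31 and 7.65 at 24 h, against 5.46, 5.93 and 6.80 at 6 h. Both separated the times completely, at 1.15 ± 0.11 and 1.26 ± 0.13 (log2, SE; adjusted p = 3.37e-07 and 6.18e-07). Ccl7, another monocyte chemokine, rose by 0.60 ± 0.08, Socs3, the feedback inhibitor of IL-6 signalling, by 0.92 ± 0.13, Cxcl1 by 0.81 ± 0.21 and the adhesion molecule Icam1 by 0.33 ± 0.11 (adjusted p = 2.03e-05, 2.81e-05, 0.0098 and 0.0342). Cxcl6, a neutrophil chemokine outside the list, was the second largest rise in the same ranking by brightest probe sets. It read 6.44, 7.07 and 7.76 at 24 h, against 5.05, 5.39 and 6.85 at 6 h (3.05-fold, limma adjusted p = 4.28e-07). In air alone the differences were 1.20 for Il6, 1.23 for Ccl2 and 1.51 for Cxcl6, and at 6 ppm 1.54, 1.54 and 1.74, each called there. The later days differed for Ccl2, with means of 6.63 at 5 days, 5.62 at 8 days and 6.71 at 19 days. The first and last of them lay about midway between the medians of 6 h and 24 h. Single rats of 5 days ran from 5.53 to 8.60. Il6 had means of 4.68, 4.30 and 4.69 and Cxcl6 of 5.65, 5.43 and 5.84 at 5, 8 and 19 days, nearer to the 6 h medians. All Il6 values of 24 h and 6 h lay below the lowest array median (6.00), so its signal was weak.

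Some markers of connective tissue and vessels rose in the same comparison. In bulk RNA more cells of a type and more RNA per cell cannot be told apart. Of 19 measured stroma and vessel markers 10 rose and none fell, against 13.1% of all genes, with a median of 0.37. Their mean ran from 8.86 to 9.21 (median 9.08) in the rats of 24 h and from 8.39 to 9.01 (median 8.72) in the rats of 6 h, so the times overlapped. Dcn, a matrix proteoglycan of fibroblasts, read 11.12, 11.37 and 11.77 at 24 h, against 10.18, 10.76 and 11.04 at 6 h (difference 0.71 ± 0.10, SE; adjusted p = 2.74e-05). Myh11 of smooth muscle rose by 0.89 ± 0.10, Pecam1 and Emcn of endothelium by 0.54 ± 0.08 and 0.67 ± 0.10 (adjusted p = 2.58e-06, 4.09e-05 and 6.18e-05). Cldn5, the tight junction protein of endothelium, was 2.31-fold higher, Fmod, a collagen-binding proteoglycan, 2.23-fold, and Fabp4, a lipid carrier of adipocytes and capillaries, 2.26-fold (adjusted p = 0.000832, 5.06e-06 and 0.0054). Aqp1, the water channel of vessels, rose 1.94-fold with no overlap (adjusted p = 1.9e-06) and Scn7a, a sodium-sensing channel of glia, 2.05-fold (adjusted p = 6.9e-05). Without the air rats 5 of the 19 were called. Calls over all 31042 probe sets fell as well, from 5658 to 2234 without the air rats. They fell to 3375 without the 0.7 ppm rats and to 4385 without the 2 ppm rats. Other list counts with a dose left out stand against these falls. The median of the stroma mean was 9.001 at 5 days, near that of 24 h, 8.05 at 8 days, whose arrays carry another name form, and 8.90 at 19 days. Their part in the rise of Il6, Ccl2 and Cxcl6 was not tested.

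Among other cell types, 3 of 17 macrophage and dendritic markers rose, Mrc1 by 0.65 ± 0.17, C1qc by 0.42 ± 0.11 and the monocyte receptor Ccr2 by 0.18 ± 0.06 (adjusted p = 0.0081, 0.0079 and 0.0298), a count near the 13.1% of all genes that rose. Their mean level overlapped between the times, at 8.16 to 8.90 at 24 h and 7.87 to 8.85 at 6 h. Of 8 neutrophil markers only Lyz2, a lysozyme gene shared with macrophages, rose (0.34 ± 0.11; adjusted p = 0.0267). No marker was called among 18 of lymphocytes, 17 of olfactory epithelium, 16 of secretory cells, 15 of skeletal muscle, 10 of tuft cells and ionocytes and 7 of erythroid cells in limma. With loess, and with averaged probe sets, 1 marker of the tuft cell and ionocyte list was called lower. In those lists the smallest adjusted p values belonged to Foxi1 of ionocytes (−0.32 ± 0.11; 0.0531), Myh7 (0.12 ± 0.04; 0.059), Scgb3a1 of secretory cells (0.48 ± 0.19; 0.0801), Cd8a (0.17 ± 0.07; 0.111), Klf1 (0.35 ± 0.15; 0.124) and Ncam2 (0.36 ± 0.20; 0.237). Ighl2, an immunoglobulin gene among the largest rises, was 2.13-fold higher (adjusted p = 0.0145).

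Genes of the cornified layer lay behind many of the largest falls, and most of that came from the 4 rats of 0.7 ppm at 24 h. Krtdap, Sbsn, Krt1 and Krt10, all made by cornifying squamous cells, differed by −1.80 ± 0.54, −1.35 ± 0.38, −1.39 ± 0.40 and −1.42 ± 0.33 (SE; adjusted p = 0.0215, 0.0154, 0.0177 and 0.0041). C20h6orf15 and C18h5orf46 differed by −1.79 and −1.69, and the epithelial antimicrobial peptide gene Defb4 by −1.50. Krtdap fell by 4.59 at 0.7 ppm (adjusted p = 0.000415) but differed by −0.71 in air and −0.09 at 2 ppm, neither called. The mean of 8 cornified layer genes, a set chosen after the values were seen, ran from 6.06 to 7.40 in the 0.7 ppm rats of 24 h. It ran from 8.30 to 9.05 in the air rats of 24 h, from 8.65 to 9.02 in the 2 ppm rats of 24 h and from 8.25 to 10.44 in the 12 rats of 6 h. The air rats of 6 h ran from 9.09 to 10.44, all above the air rats of 24 h, while the 2 ppm rats of 6 h (8.25 to 9.85) overlapped those of 24 h. The same mean also varied widely at other times, from 6.11 to 11.62 in 2 ppm rats of 5 days and from 5.86 to 9.53 in the later-set air rats of 6 h. Without the 0.7 ppm rats none of Krtdap, Sbsn, Krt1, Krt10, C20h6orf15, C18h5orf46 and Defb4 was called. Among 23 basal and squamous markers 3 fell and none rose, against 8.67% of all genes that fell. The median of the list was −0.019 in air, −0.335 at 0.7 ppm and 0.002 at 2 ppm. The 3 were Loricrin (−0.83 ± 0.20), Dst (−0.31 ± 0.09) and Tgm1 (−0.95 ± 0.32), with adjusted p of 0.0050, 0.0182 and 0.0391. The call for Tgm1 was lost when any of several single rats was left out.

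**Figure D3:**
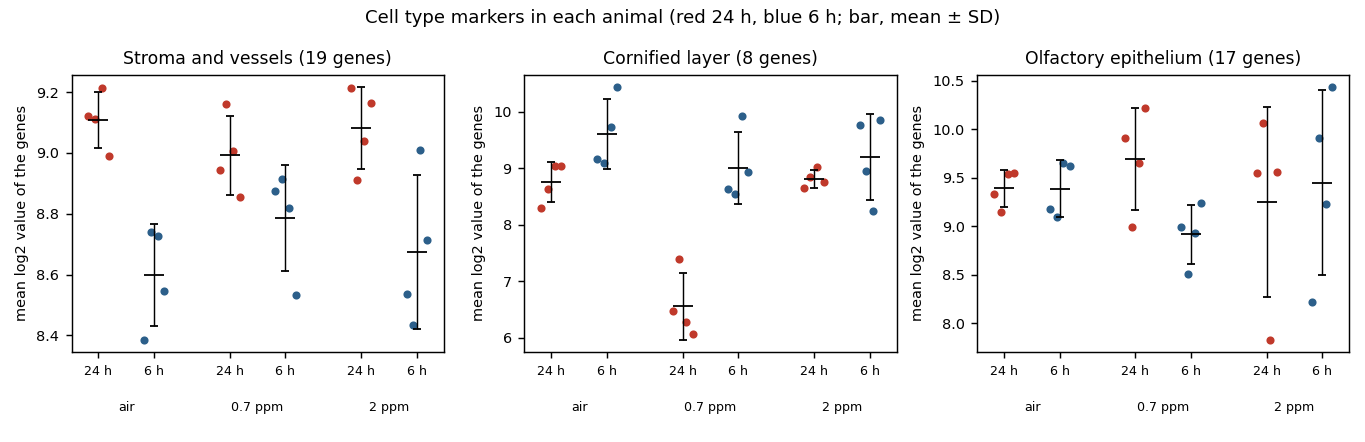
Each point is 1 rat, 4 per group, and the vertical axis is the mean log2 value of the marker genes; 24 h (red) stands left of 6 h (blue) within each dose, and bars give the mean and SD. In air, stroma and vessel markers ran from 8.99 to 9.21 at 24 h and from 8.39 to 8.74 at 6 h, cornified layer genes lay lowest in the 0.7 ppm rats of 24 h, and olfactory markers varied most at 2 ppm.

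Gmnc, which encodes GEMC1, a switch for the birth of multiciliated cells, read 4.25, 4.78 and 5.29 at 24 h, against 5.27, 6.16 and 6.89 at 6 h. It was 2.55-fold lower (difference −1.35 ± 0.15, SE; adjusted p = 1.33e-06), with 11 of 12 rats of 24 h below the lowest of 6 h, and its median over the later days was 5.86. At 6 ppm it differed by −0.53 and was not called (limma adjusted p = 0.335). Its signal was weak, with all values of the 12 rats of 24 h below their array medians (6.03 to 6.06). Of 9 ciliated cell markers 3 were called lower, against 8.67% of all genes. Beside Gmnc these were Rsph1 (−0.24 ± 0.07, adjusted p = 0.0273) and Ccdc40 (−0.24 ± 0.08, adjusted p = 0.0465), both of which lost the call without single rats. The 6 markers not called all had positive differences, and the median of the list was 0.02. Foxj1, the master regulator of motile cilia, was not called (0.22 ± 0.09; adjusted p = 0.0976).

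Of 40 cell cycle genes 11 fell, none rose and 29 were not called, against 8.67% of all genes that fell, with a median of −0.15. Ccna2, cyclin A, read 4.29, 5.21 and 5.60 at 24 h, against 5.29, 5.59 and 6.08 at 6 h (difference −0.53 ± 0.13, SE; adjusted p = 0.0054). Bub1b of the spindle checkpoint fell by 0.33 ± 0.07, Aurkb by 0.31 ± 0.07 and Ccne1, cyclin E, by 0.27 ± 0.07 (adjusted p = 0.0026, 0.0039 and 0.0051). Only 3 of the 11 had the same sign at 6 ppm, where the median of the list was 0.21. Without the air rats 1 gene of the list was called, and without the 0.7 ppm rats 5. Calls over all probe sets also fell, from 5658 to 2234 and 3375. Ccnd1, cyclin D1, fell by 0.58 ± 0.08 (adjusted p = 3.31e-05).

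Immediate early genes, which respond within minutes to growth factors and to tissue handling, were called higher at 24 h in 11 of 27 cases, lower in none and not called in 16, against 13.1% of all genes that rose, with a median of 0.26. Junb read 10.34, 10.78 and 11.17 at 24 h, against 9.50, 10.00 and 10.51 at 6 h (difference 0.76 ± 0.11, SE; adjusted p = 2.32e-05). Klf2 rose by 0.45 ± 0.08, Klf6 by 0.68 ± 0.14 and Ccn1 by 0.41 ± 0.09 (adjusted p = 0.00062, 0.0011 and 0.0025), and the called members had the same sign at 6 ppm. The later days differed between members: Klf2 and Ier2 were back near their 6 h level, whereas Junb (mean 10.52), Klf6 (9.72) and Ccn1 (9.09) stayed nearer to 24 h. With the RNA integrity number as a covariate, over the 20 rats that have one, 6 members rose and 1 fell. Without the air rats or without the 0.7 ppm rats 6 rose. Calls over all probe sets also fell there, from 5658 to 2234 and 3375.

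Among 22 genes of tRNA charging and amino acid supply 8 rose, none fell and 14 were not called, against 13.1% of all genes that rose, with a median of 0.12. Without the air rats 3 rose, where calls over all probe sets also fell, from 5658 to 2234. Mthfd2 of mitochondrial folate metabolism read 7.11, 7.28 and 7.64 at 24 h, against 6.68, 6.89 and 7.13 at 6 h (difference 0.42 ± 0.06, SE; adjusted p = 2.38e-05), while Slc3a2 and Slc7a5, the subunits of a transporter of large neutral amino acids, rose by 0.24 ± 0.04 and 0.51 ± 0.10, and the tRNA ligase Yars1 by 0.21 ± 0.04 (adjusted p = 4.42e-05, 0.0011 and 0.000657). Of 20 ER stress genes, which serve protein folding in the endoplasmic reticulum, 6 rose, none fell and 14 were not called, against the same 13.1%. Atf4, which switches on the amino acid genes, read 11.62, 11.81 and 11.94 at 24 h, against 11.36, 11.47 and 11.56 at 6 h, with no overlap (difference 0.34 ± 0.04; adjusted p = 1.26e-06). The chaperone Hyou1 rose by 0.40 ± 0.09, Sel1l by 0.18 ± 0.04 and Pdia4 by 0.23 ± 0.07 (limma adjusted p = 0.0018, 0.0059 and 0.0159). Of the list 3 were called without the dose block and 2 without the air rats. Over all probe sets those fits gave 5584 and 2234 calls. Of 22 genes of oxidative phosphorylation 6 rose and none fell, again against 13.1%, by at most 0.21 ± 0.05 for Uqcrfs1 (adjusted p = 0.0040), 3 were called when arrays were centred on their medians, and none without the 2 ppm rats.

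In the lists that follow, counts stand against 13.1% of all genes that rose and 8.67% that fell. Of 21 interferon-stimulated genes 4 were lower, Mx2 by −0.63 ± 0.15, Mx1 by −0.71 ± 0.22, Ifi44 by −0.35 ± 0.10 and Ifih1 by −0.22 ± 0.06 (adjusted p = 0.0050, 0.0253, 0.0151 and 0.0154), and Irf1, a factor induced by interferon, rose by 0.35 ± 0.09 (adjusted p = 0.0098). Without the 0.7 ppm rats none of the 21 was called. Glucocorticoid-responsive genes gave 3 rises and 1 fall among 18: Cdkn1c rose by 0.45 ± 0.08, Lcn2 by 0.38 ± 0.09 and Mt1 by 0.29 ± 0.08, and Ddit4 fell by 0.80 ± 0.18 (adjusted p = 0.000248, 0.0061, 0.0113 and 0.0030). Of 20 insulin and FoxO targets 5 rose, with Foxo1 (0.49 ± 0.07) and Gadd45a (0.45 ± 0.08) first, and 4 fell, with Ccnd1 first.

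Among detoxifying genes, Cyp2e1, a monooxygenase of small solvents, read 6.10, 7.01 and 8.05 at 24 h, against 4.92, 5.79 and 6.73 at 6 h (2.47-fold; adjusted p = 0.000252), and the P450 reductase Por fell by 0.35 ± 0.06 (adjusted p = 0.000334). With them Sult1a1 and Cyp1a1 rose and Sult1c2 fell, 5 of 22 xenobiotic genes in all. Of 15 aldehyde-metabolising genes only Adh7, an alcohol dehydrogenase of upper airway and gut epithelium, was called, lower by −0.63 ± 0.18 (adjusted p = 0.0179), and that call was lost without the air rats or without the 0.7 ppm rats. Nrf2 targets gave 4 rises and 1 fall among 17, with Txnrd1 (0.27 ± 0.06), Sqstm1 (0.17 ± 0.05), Hmox1 (0.43 ± 0.12) and Gsr (0.60 ± 0.21) higher and Nqo1 (−0.24 ± 0.08) lower. At 6 ppm Txnrd1, Sqstm1 and Hmox1 had the opposite sign (−0.28, −0.20 and −0.93). The part of the 6 ppm exposure in this was not tested.

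The remaining lists also stand against 13.1% higher and 8.67% lower among all genes. Heat shock genes gave 2 rises (Cryab, 0.81 ± 0.12, and Fkbp4, 0.22 ± 0.05) and 1 fall (Chordc1, −0.51 ± 0.06) among 18. Their promoters held a heat shock element, GAANNTTC on either strand, in 10 of the 15 that were in the table, Fkbp4 and Chordc1 among them, against 8.59% of all promoters. The windows of Hspd1 and Hspe1 overlap on opposite strands, and the same site is counted in both. Of 3 genes for cold-inducible RNA-binding proteins Rbm3 fell with no overlap (−0.26 ± 0.04; adjusted p = 2.55e-05), Cirbp rose (0.31 ± 0.06; adjusted p = 0.0015) and Srsf5 was not called (−0.08). Ion and water transport gave 5 rises and 3 falls among 20, Aqp3 and Aqp4 falling by 0.29 and 0.21 and Scnn1g, a subunit of the epithelial sodium channel, rising by 0.27. Proteasome genes gave 3 rises and 3 falls among 19, with Psmc4 (0.20 ± 0.03) first. Ribosome biogenesis gave 5 rises and 2 falls among 31, led by Ddx21 (−0.35 ± 0.07) and Dkc1 (0.23 ± 0.05). Cell cycle inhibitors and p53 targets gave 4 rises and 2 falls among 18, with Gdf15 (0.49 ± 0.11) first. Fasting and fat oxidation genes gave 3 rises (Plin2, G0s2, Ppargc1a) and 1 fall (Slc25a20) among 20, cholesterol synthesis 2 falls (Hsd17b7 and Idi1) among 18, glycolysis and hypoxia 3 rises (Aldoa, Gpi and Slc16a3) among 22, none of them called with median centring or without the air rats, and wound repair and EGFR ligands 4 rises, led by Egfr (0.76 ± 0.10), and 1 fall, Tgfa (−0.36 ± 0.05), among 16.

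**Figure D4:**
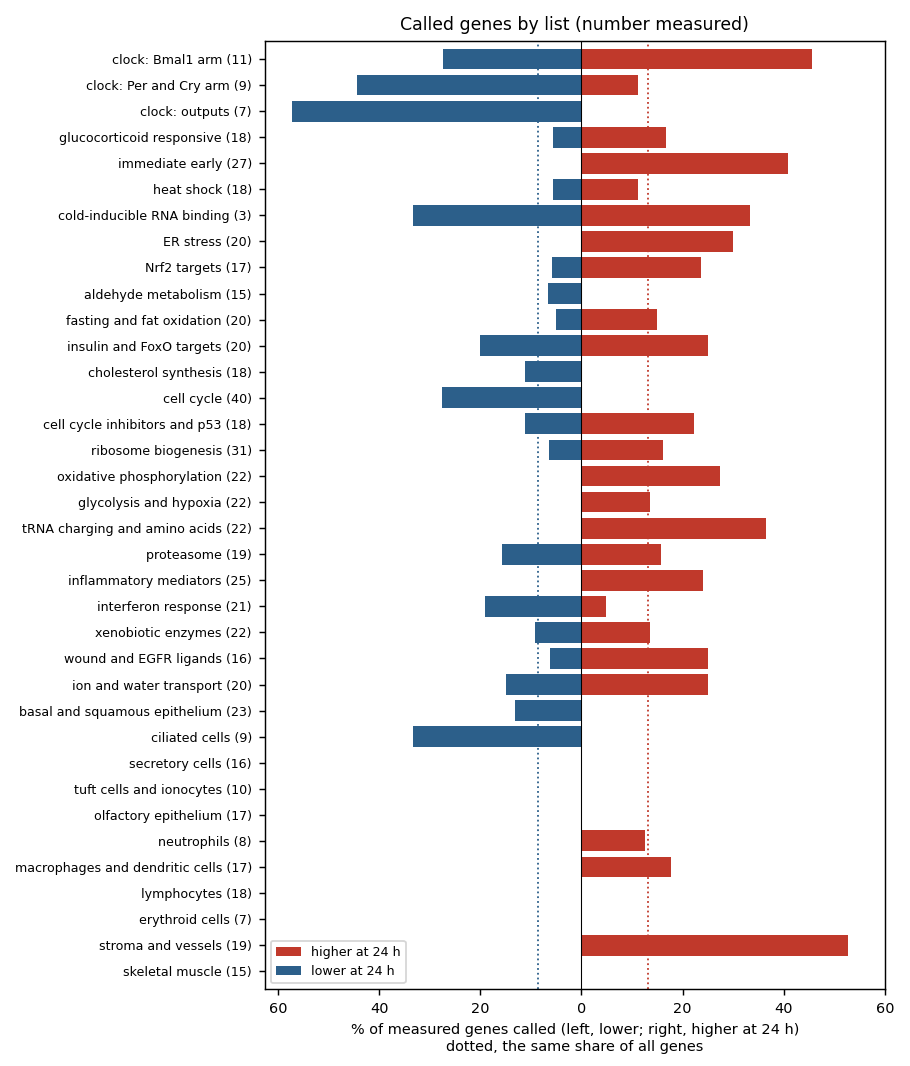
For each of the 36 gene lists, with the number of measured genes in brackets, the bar to the right gives the percentage called higher at 24 h and the bar to the left the percentage called lower; dotted lines mark 13.1% and 8.67%, the shares of all genes. The bars of the clock lists, stroma and vessels and immediate early genes reach well past the lines, and those of the cold-inducible and ciliated lists do so on 3 and 9 genes.

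A second kind of change came into view when the later times were set beside both groups: for some probe sets it was 6 h that stood apart. Nek1, a kinase gene of cilia and DNA repair, had medians of 7.38 at 6 h, 6.03 at 24 h and 6.21 over the 38 rats of the later days, and a mean of 6.44 in the 6 h air rats of the later array set. Bmpr2, a BMP receptor, had medians of 7.23 at 6 h, 8.47 at 24 h and 8.28 at the later days, and 8.41 in the later-set 6 h air rats, none of which (8.15 or more) overlapped the first-set rats of 6 h (7.52 or less). Cmip likewise had medians of 7.80, 9.56 and 9.25 at 6 h, 24 h and the later days. These 3 belong to the 24 largest changes: 2.50-fold lower for Nek1 and 2.39-fold and 2.93-fold higher for Bmpr2 and Cmip at 24 h (adjusted p = 8.17e-07, 4.47e-09 and 3.58e-05).

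Probe sets of the same gene did not always move together. Bmpr2 and Cmip are from the genes above, whereas the later days of Stat3, Egfr and Cirbp are not given here. The called Bmpr2 probe set rose by 1.26 ± 0.09 while the other differed by 0.04 ± 0.05, and the called Cmip probe set rose by 1.55 ± 0.22 while its other probe sets differed by −0.10 ± 0.17 and 0.09 ± 0.07. Stat3, the transcription factor of IL-6 signalling, rose by 0.94 ± 0.09 on its brightest probe set and differed by 0.00 ± 0.11 on the other. Egfr rose by 0.76 ± 0.10 on its brightest probe set and differed by 0.10 ± 0.08 and −0.15 ± 0.06 on the others, neither called. Cirbp rose by 2.16 ± 0.28 and 1.47 ± 0.21 on its dimmer probe sets, against 0.31 ± 0.06 on its brightest. These probe sets were singled out after their values were seen.

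Over all 635 called probe sets that differed by more than 0.5 on the log2 scale, the mean of the later days lay less than 0.25 of the way from 6 h to 24 h for 234, at 0.75 of the way or beyond for 136, and between for 265. Among the 123 called genes past that size with more than 1 probe set, another probe set was called the same way in 35 of the 54 whose later days were near 6 h and in 6 of the 20 whose later days were near 24 h. What the array name form of the 6 h rats marks was not tested.

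**Figure D5:**
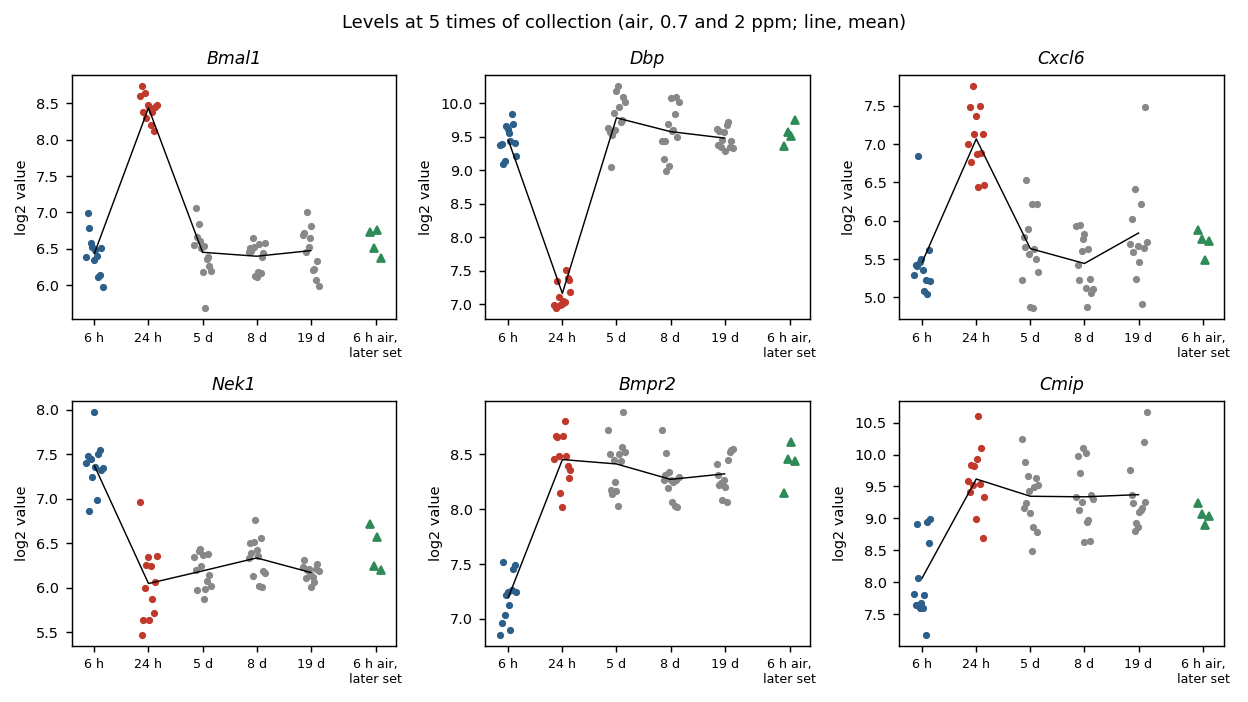
Points are single rats of air, 0.7 ppm and 2 ppm at 6 h (blue), 24 h (red) and 5, 8 and 19 days (grey), with the mean as a line, and green triangles are 4 air rats of the later array set at 6 h; the vertical axis is the log2 value. For Bmal1 and Dbp no rat of another time reaches the range of 24 h, whereas for Cxcl6 single rats do (up to 7.48 at the later days and 6.85 at 6 h); for Bmpr2 no rat of another time reaches the first-set range of 6 h, whereas for Nek1 and Cmip the 24 h and 6 h ranges overlap.

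The last comparison asked whether the time difference depended on the inhaled dose. No probe set was called in limma's F-test of time by dose (0.0% of 31042; 1809 at an unadjusted p under 0.05), and the smallest adjusted p was 0.359. Within the doses 1261 probe sets were called in air (4.06%; 2.73% higher and 1.33% lower at 24 h), 933 at 0.7 ppm (3.01%; 1.36% higher and 1.65% lower) and 996 at 2 ppm (3.21%; 1.9% higher and 1.31% lower). The 6 genes with the smallest p for time by dose were Ccn2 (0.85 in air, −0.41 at 0.7 ppm and −0.24 at 2 ppm), Esco2, Krtdap, Zfp446, Per2 and LOC102551009. Per2 differed by −0.31 in air, −0.69 at 0.7 ppm and −1.02 at 2 ppm (log2; adjusted p = 0.590 for time by dose), and by −1.10 at 6 ppm. Of the 5658 pooled calls, 97.8% had the same sign in the 3 doses, which a call pooled over those doses itself favours.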

How the data were processed

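RNA of single rats was hybridised to Affymetrix Rat230_2 arrays, per the labels. The authors deposited 1 log2 value per probe set and array; how probes were summarised and normalized is not stated in the labels or the file, and no raw scanner files were used, so background and saturation per probe could not be examined. The file held 31099 probe sets, of which 57 Affymetrix controls were left out. Of the 31042 tested, 20826 had 1 gene symbol, 436 several and 9780 none listed. Each gene is represented by its brightest probe set, by the mean of the 98 arrays (14217 genes, 4525 with more than 1 probe set).

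Groups followed the labels. limma 3.58.1 in R 4.3.3 (the file read with data.table, version 1.17.8) fitted the time with dose as a block to 24 arrays, with 20 residual degrees of freedom, and 6 group means for the within-dose and time by dose tests; the 8 arrays of 6 ppm were fitted apart. Tests were two-sided and Benjamini-Hochberg adjusted over all probe sets. The fit was tested on simulated data. SEs are the model's, and the number of rats limits the precision.

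The comparison and the 36 gene lists (640 of 720 entries measured) were chosen with earlier results of these data known. Named are the 12 largest rises and falls among called genes with 1 sign in the 3 doses, clock genes, up to 4 leading members of each list, any member behind a count of 5 or fewer, 6 genes of the time by dose test and 5 genes most like Bmal1 and Per2. Alternatives were the dose term, all 98 arrays, 6 ppm as a dose, loess, median centring, a signal filter (mean log2 of at least 6), prior, RNA integrity and absorbance as covariates, single rats and doses left out, and averaged probe sets.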

Additional observations from a re-analysis of the deposited data

Results flagged for a closer look

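Among 276 sets of 4 rats (46 genes in 6 groups) 15 held a rat far from the other 3 by Dixon's test, where chance gives about 1 in 20. At 24 h, animal 212 of 2 ppm had C20h6orf15 at 9.82 (the others 10.72 to 10.88) and Usp2 at 7.34 (7.83 to 7.86), and animal 211 of 2 ppm had Per1 at 8.35 (8.50 to 8.51). Animal 133 of 0.7 ppm at 24 h had Sbsn at 6.50 (5.77 to 5.89), and animal 134 of the same group Nek1 at 5.64 (6.24 to 6.35). At 6 h, animal 209 of 2 ppm, the array with the lowest correlation to the others, had Cldn5 at 6.73 (7.18 to 7.26), Tspan4 at 8.01 (8.53 to 8.54) and Nampt at 9.94 (10.78 to 10.86). Among the air rats of 6 h, animal 52 had Cxcl6 at 6.85 (5.29 to 5.42) and Csnk1e at 7.61 (7.78 to 7.80), and animal 53 had Per2 at 8.75 (8.34 to 8.35) and Hlf at 10.62 (10.30 to 10.34). Animal 50 of that group had Fmod at 7.63 (6.82 to 6.83) and Nek1 at 6.86 (7.40 to 7.48), and animal 49 had Csnk1d at 9.39 (9.29 to 9.30).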

How the results depend on the processing

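Over the doses, 5658 probe sets were called; the count was 2234 without the air rats, 3375 without the 0.7 ppm rats and 4385 without the 2 ppm rats, each with 16 rats left, and from 4859 to 6283 when single rats were left out. Leaving out single rats gave 659 to 1321 calls in air, 395 to 1343 at 0.7 ppm, 312 to 1197 at 2 ppm, 9 to 345 at 6 ppm and 0 to 1 for time by dose. A fit to only the 8 arrays of the dose gave 14 calls at 2 ppm, and a fit to all 98 arrays gave 965 at 6 ppm. Psmd14 changed sign, to 0.0211, when the probe sets of the gene were averaged. The cause of these shifts was not tested. Of the values of 185 named genes under the alternatives, 6589 kept direction and side of the threshold, 295 lost the call and 100 gained it. The alternative without the 2 rats at the ends of the first principal component was chosen after seeing the data. No paired analysis was possible because no animal number recurs between the times. With 4 rats per dose and time, small differences within a dose are not detectable with certainty, and weak probe sets could not be set against background.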
